A study of Mus musculus with 8 samples.

Results

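The comparison described here sets b-gal+ F4/80high liver macrophages against hepatocytes from livers injured in the same way. Its members are the 4 libraries that the sample titles name as b-gal+ F4/80high cells (n = 2) or hepatocytes (n = 2), of 8 libraries in all. The b-gal- F4/80high cells and EpCAM-positive cells (2 libraries each) were kept as separate groups: they enter the estimate of spread and are named wherever their values are used. All mice were Lgr5-LacZ transgenic on a mixed C57BL/6 and CBA background, so that the hepatocytes carry the reporter too. All mice had received carbon tetrachloride (CCl4), a toxin that hepatocytes of the central zone turn into a damaging radical. It was given once into the peritoneum at 1 µl per g of body weight in rapeseed oil, and livers were taken 6 days later. No library of uninjured liver was analysed here. Mice were 10 to 12 weeks old according to the labels of the libraries, and 7 to 12 weeks old according to the series text. Each library pooled cells from 2 mice. Livers were perfused with collagenase and the remainder was digested with Pronase. Hepatocytes were pelleted at 50 x g and collected. The b-gal+ cells came from the supernatant: they went through red cell lysis, loading with FDG, a substrate that fluoresces once cleaved by β-galactosidase, F4/80 staining and flow sorting. Cell type and handling therefore cannot be told apart in any difference below. Nor, in bulk RNA, can fewer cells of a type be told apart from less RNA per cell.

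Kupffer cells are the resident macrophages of the liver sinusoids. They take up bacteria, damaged red cells and lipoproteins from portal blood through scavenger, complement and Fc receptors, degrade them in lysosomes and return the iron to plasma. Hepatocytes are the epithelial cells that make most plasma proteins, bile acids, urea and glucose and that clear drugs through cytochromes P450. The lineages are set by different transcription factors, with PU.1 (gene Spi1) central to macrophages and HNF1, HNF4 and C/EBP factors to hepatocytes.

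Reads totalled 21003933 and 23066796 in the b-gal+ libraries, against 24549242 and 23760121 in the hepatocyte libraries, and 16948568 to 24549242 over the series. Genes with a read numbered 14432 to 16130 per library. The 10 genes with most reads in each group took 8.17% and 9.10% of the b-gal+ reads, against 19.6% and 22.7% of the hepatocyte reads. Because a few genes fill the hepatocyte libraries, levels are given as CPM (reads scaled to a fixed library total) after TMM scaling, which balances the bulk of genes between libraries, with factors of 1.06 and 1.08 in b-gal+ cells, against 0.552 and 0.527 in hepatocytes. Across tested genes, Spearman's rho was 0.983 between the b-gal+ replicates, 0.985 between the hepatocyte replicates, and 0.598 to 0.602 between b-gal+ and hepatocyte libraries. Genes are not independent replicates. In all 4 groups replicate 1 held reads of Ddx3y, a Y chromosome gene, and replicate 2 held 0, so the replicates of a group differ in more than sampling. The transgene itself gave next to no reads: LacZ had 0 and 4 reads in b-gal+ cells, against 1 and 14 reads in hepatocytes, and was not called (adjusted p = 0.252), but was called lower without hepatocyte replicate 1 (adjusted p = 0.0285). Lgr5, the stem-cell receptor whose locus the reporter is named for, had 0 and 5 reads in b-gal+ cells, against 91 and 175 in hepatocytes (log2 difference -4.11 ± 0.41, adjusted p = 0.000158).

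Promoters of 5 genes are shown because each encodes a product that the results turn on and its window holds a motif of a lineage or lysosomal factor. Each window runs from 250 bases before to 50 bases after the RefSeq start, 5′ to 3′ on the gene's own strand (GRCm38.p6), and capitals mark the motif. Ctss (cathepsin S, chr3:95526536-95526835, plus strand) and C1qc (a C1q chain, chr4:136892865-136893164, minus strand) hold the PU.1 motif GAGGAAGT on the opposite strand. Alb (albumin, chr5:90460620-90460919, plus strand) and Fgb (fibrinogen β, chr3:83049814-83050113, minus strand) hold the HNF1 motif GTTAATNNT, Alb on the gene's own strand and Fgb on the opposite strand. Ctsd (cathepsin D, chr7:142387778-142388077, minus strand) holds TCACGTGA, the motif of the lysosomal regulators TFEB and TFE3.
Ctss: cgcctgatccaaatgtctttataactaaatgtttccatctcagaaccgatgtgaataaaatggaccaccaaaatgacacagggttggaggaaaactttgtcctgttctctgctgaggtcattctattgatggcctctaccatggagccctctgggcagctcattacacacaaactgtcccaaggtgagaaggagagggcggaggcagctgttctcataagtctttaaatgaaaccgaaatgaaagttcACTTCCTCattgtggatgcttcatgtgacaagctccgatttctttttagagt
C1qc: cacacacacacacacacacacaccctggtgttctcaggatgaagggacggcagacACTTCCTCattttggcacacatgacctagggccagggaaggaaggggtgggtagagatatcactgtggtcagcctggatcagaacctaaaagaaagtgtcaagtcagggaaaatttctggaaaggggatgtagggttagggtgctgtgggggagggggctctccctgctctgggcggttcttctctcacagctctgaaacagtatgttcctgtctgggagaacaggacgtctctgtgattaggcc
Alb: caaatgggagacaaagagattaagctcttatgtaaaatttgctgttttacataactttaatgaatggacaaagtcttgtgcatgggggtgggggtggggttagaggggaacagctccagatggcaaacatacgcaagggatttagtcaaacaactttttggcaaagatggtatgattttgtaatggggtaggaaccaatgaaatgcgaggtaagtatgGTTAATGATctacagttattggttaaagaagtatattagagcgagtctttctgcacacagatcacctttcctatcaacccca
Fgb: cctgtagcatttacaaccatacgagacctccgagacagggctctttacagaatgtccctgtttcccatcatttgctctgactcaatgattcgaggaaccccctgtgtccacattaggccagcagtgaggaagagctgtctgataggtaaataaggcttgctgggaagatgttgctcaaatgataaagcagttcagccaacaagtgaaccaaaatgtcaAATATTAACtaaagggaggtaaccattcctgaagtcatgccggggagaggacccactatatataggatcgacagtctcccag
Ctsd: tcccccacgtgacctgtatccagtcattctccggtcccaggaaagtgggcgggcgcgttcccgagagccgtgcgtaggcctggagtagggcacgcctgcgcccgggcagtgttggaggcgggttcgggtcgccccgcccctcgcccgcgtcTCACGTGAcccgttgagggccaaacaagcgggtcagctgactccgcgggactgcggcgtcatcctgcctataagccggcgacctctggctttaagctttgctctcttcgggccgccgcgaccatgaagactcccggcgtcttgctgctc

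The motifs were searched on both strands in the 10956 of 14404 tested genes with a RefSeq window. No motif contains another. GAGGAAGT was in 9.65% of windows of genes at least 16-fold higher in b-gal+ cells, 1.82% of those at least 16-fold lower, 3.16% of all tested genes with a window and 3.28% of all RefSeq windows. GTTAATNNT ran the other way, with 1.09%, 7.94%, 1.68% and 2.62% in the same order of sets. It was in 10 of 23 windows of the plasma carrier proteins and inhibitors described below. The HNF4 motif CAAAGTCCA was in 1.28% of the strongly higher and 2.08% of the strongly lower windows (0.493% of all tested genes with a window). The C/EBP motif TTGCNNCAA was in 3.46% and 2.99% (1.72% of all tested). TCACGTGA was in 1.28% and 0.781% (1.75% of all tested). None of the 18 windows of Kupffer cell markers held GAGGAAGT. A match is a description of letters, not a binding site.

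Of the 14404 genes tested, 4254 were higher in b-gal+ cells than in hepatocytes (29.5%) and 4268 were lower (29.6%), at an adjusted p under 0.05. The median log2 difference over all tested genes was 0.10. By size, 718 of the called genes were at least 16-fold higher and 1028 at least 16-fold lower. The other 5882 genes were not called. For 2708 of these the 95% interval lay within 2-fold in either direction, and for the others the spread leaves a difference of more than 2-fold possible. With 2 libraries a group, and no label stating that the pools come from different animals, p-values measure the spread between these libraries. The balance between higher and lower depends on the scaling: with library totals alone, without TMM factors, 7336 genes were higher and 2360 lower, and the median of all tested genes was 0.82. Every difference below is therefore relative to the bulk of genes under TMM.

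**Figure D1:**
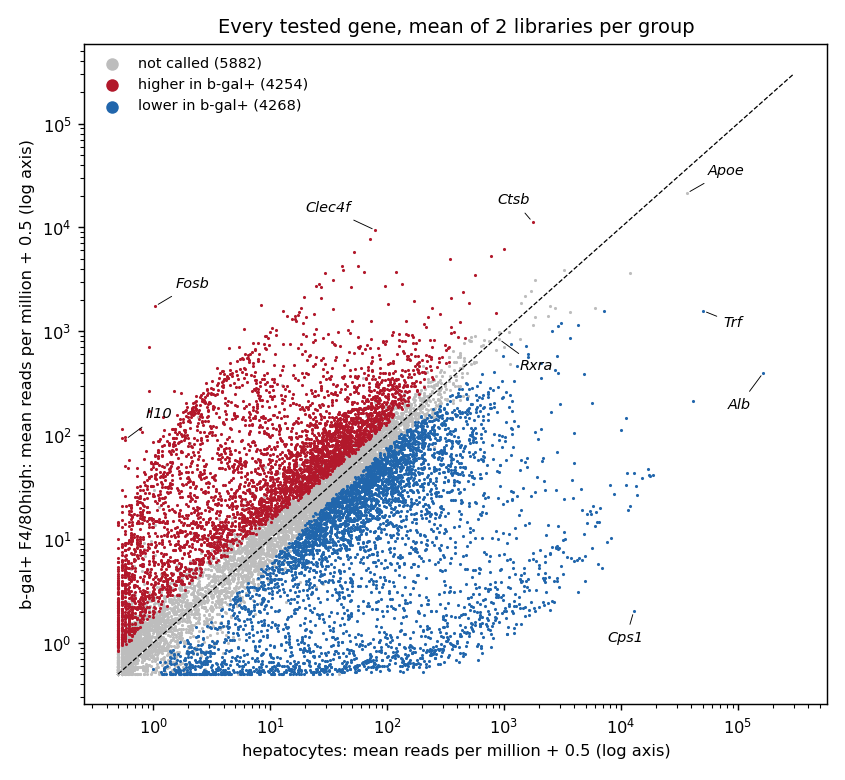
Mean level of each of the 14404 tested genes in b-gal+ cells (vertical axis) against hepatocytes (horizontal axis), in TMM-scaled CPM plus 0.5 on log axes, with the line of equal level; red points are the 4254 genes called higher, blue the 4268 called lower and grey the 5882 not called. Fosb and Clec4f lie far above the line, Cps1 and Alb far below it, and Rxra and Apoe near it.

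The markers that define Kupffer cells were high in both b-gal+ libraries. Clec4f, the Kupffer cell lectin (chromosome 6, 83644542 to 83656187 on GRCm38), had 8530.1 and 10238 CPM in b-gal+ cells, against 85.5 and 72.6 CPM in hepatocytes. Vsig4, the complement receptor CRIg, had 2176 and 2141 CPM in b-gal+ cells, against 21.4 and 16.5 CPM in hepatocytes. The groups did not overlap for either gene. The log2 differences were 6.88 ± 0.79 for Clec4f (± SE, adjusted p = 0.000319) and 6.80 ± 0.79 for Vsig4 (adjusted p = 0.000327). Cd163, the receptor for haptoglobin-bound haemoglobin, had 1873 and 1237 CPM in b-gal+ cells, against 16 and 8.78 CPM in hepatocytes (log2 difference 6.94 ± 0.66, adjusted p = 0.000131). Cd5l, a secreted protein of tissue macrophages, had 9257 and 6262 CPM in b-gal+ cells, against 90.7 and 50.4 CPM in hepatocytes (log2 difference 6.80 ± 1.09, adjusted p = 0.00154). Marco, a scavenger receptor, differed between the b-gal+ libraries, with 1486 and 473 CPM in b-gal+ cells, against 14.8 and 4.23 CPM in hepatocytes, yet its lowest b-gal+ value was far above both hepatocyte values.

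Of 20 tested Kupffer cell markers, 19 were higher and 0 lower, with a median log2 difference of 6.48, against 0.10 over all tested genes. All 19 were called higher than in each of the 3 other groups, as were 6.01% of all tested genes. The marker not called was Nr1h3, the oxysterol receptor LXRα, which hepatocytes also use: it had 459.6 and 457 CPM in b-gal+ cells, against 223 and 181 CPM in hepatocytes (log2 difference 1.19 ± 0.44, adjusted p = 0.0525). Its call turned with the settings: it was called higher by DESeq2 (adjusted p = 0.0304), with library totals alone (0.00321) and with only the 4 libraries compared (0.00405), among others. C6, a component of the terminal complement complex, was uneven in hepatocytes, with 1029 and 956 CPM in b-gal+ cells, against 205 and 18.2 CPM in hepatocytes (log2 difference 4.00 ± 1.17, adjusted p = 0.0225), and was not called by edgeR (adjusted p = 0.0644) or after removal of either b-gal+ library or of hepatocyte replicate 2 (adjusted p of 0.0806 to 0.121).

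Markers shared by most macrophages followed. All 18 were higher, with a median of 6.55. Csf1r, the receptor for the macrophage growth factor CSF1, had 6142 and 5537 CPM in b-gal+ cells, against 57.3 and 45.7 CPM in hepatocytes (log2 difference 6.82 ± 0.54, adjusted p = 5.91e-05). C1qb, a chain of the complement starter C1q, had 3397 and 3804 CPM in b-gal+ cells, against 33.9 and 23.5 CPM in hepatocytes (log2 difference 6.97 ± 0.76, adjusted p = 0.000250). Adgre1, which encodes the F4/80 antigen used in the sort, had 1731 and 1361 CPM in b-gal+ cells, against 20.1 and 13.9 CPM in hepatocytes (log2 difference 6.48 ± 0.96, adjusted p = 0.00106), and it is a check of the sort, not a finding. Signalling and adhesion genes of blood cells were likewise higher in 34 of 34 cases, with a median of 5.80. Among them were the kinase Syk, with 470.1 and 573 CPM in b-gal+ cells, against 5.24 and 4.15 CPM in hepatocytes (log2 difference 6.65 ± 0.45, adjusted p = 3.10e-05), and the exchange factor Vav1, with 348 and 374 CPM in b-gal+ cells, against 4.50 and 3.03 CPM in hepatocytes (log2 difference 6.43 ± 0.58, adjusted p = 0.000104). All 7 Fc receptor and ficolin genes were higher (median 6.20), including Fcgr4, an IgG receptor, with 154 and 258 CPM in b-gal+ cells, against 2.21 and 2.24 CPM in hepatocytes (log2 difference 6.20 ± 0.35, adjusted p = 1.63e-05).

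Hepatocyte markers showed the opposite pattern with larger differences. Alb (chromosome 5, 90460897 to 90476602) had 222 and 572 CPM in b-gal+ cells, against 126463 and 202801 CPM in hepatocytes (log2 difference -8.81 ± 1.03, adjusted p = 0.000337). Cps1, the entry enzyme of the urea cycle (chromosome 1, 67123026 to 67231259), had 1.39 and 1.65 CPM in b-gal+ cells, against 10102 and 15656 CPM in hepatocytes. That is 31 and 41 reads in b-gal+ cells, against 136820 and 196132 in hepatocytes, and the difference of -12.61 ± 1.24 (adjusted p = 0.000151) was the lowest of all genes at a mean of 20 CPM or more. Pck1, which drives gluconeogenesis, had 4.65 and 4.75 CPM in b-gal+ cells, against 7046 and 6651 CPM in hepatocytes (log2 difference -10.36 ± 0.78, adjusted p = 4.91e-05). Cyp3a11, a drug-clearing cytochrome P450, had 4.61 and 5.87 CPM in b-gal+ cells, against 6801 and 5975 CPM in hepatocytes (log2 difference -10.13 ± 0.80, adjusted p = 6.14e-05). All 16 hepatocyte markers were lower, with a median of -9.31, against 29.6% of all tested genes called lower. Ass1, an enzyme of the urea cycle, had 0 and 0 reads in b-gal+ cells, against 28 and 30 in hepatocytes; near-identical copies in the genome can take reads from it, so its level is uncertain.

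**Figure D2:**
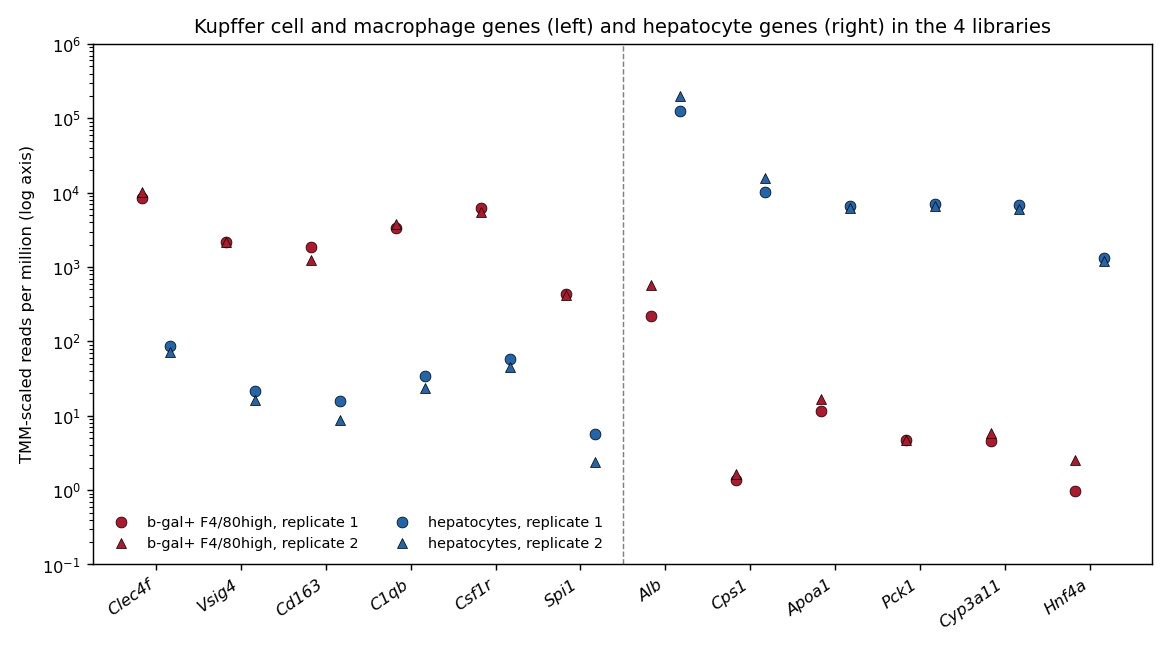
Level in TMM-scaled CPM (log axis) of 6 macrophage genes, left of the dashed line, and 6 hepatocyte genes, right of it; each point is 1 library, red for b-gal+ cells and blue for hepatocytes, with a circle for replicate 1 and a triangle for replicate 2. Replicates lie close together beside the distance between groups for each of the 12 genes.

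Each group nevertheless held reads of the other's markers. The hepatocyte level of the Kupffer cell markers was 0.986% of the b-gal+ level at the median, with a range of 0.575% (Cd209f) to 44.1% (Nr1h3). For the pan-macrophage markers it was 1.05% (0.797% to 4.61%). The b-gal+ level of the hepatocyte markers was 0.150% of the hepatocyte level at the median and at most 0.270% (Fgb). The defining macrophage markers were thus not at 0 in hepatocytes, and apart from Ass1 no hepatocyte marker was at 0 in b-gal+ cells. How far cells of the other type in each preparation account for these reads was not tested.

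**Figure D3:**
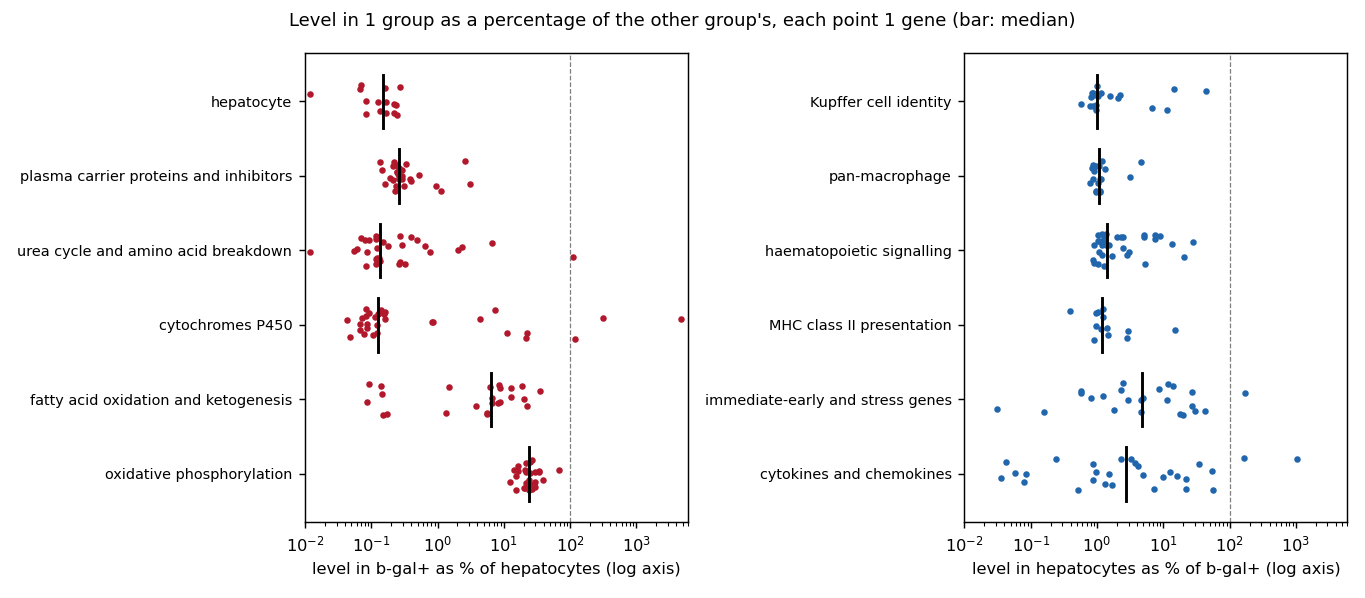
Level of each gene in 1 group as a percent of its level in the other (log axis, 1 point per gene, bar at the median): b-gal+ as a percent of hepatocytes for hepatocyte lists on the left, hepatocytes as a percent of b-gal+ cells for macrophage lists on the right, with a dashed line at equal levels. Hepatocyte markers gather near 0.150%, Kupffer cell markers near 0.986%, and single immediate-early genes and cytokines lie well below 0.575%.

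The transcription factors followed their lineages, with less contrast for some that both cell types use. Spi1 had 432 and 420.0 CPM in b-gal+ cells, against 5.61 and 2.39 CPM in hepatocytes (log2 difference 6.66 ± 0.65, adjusted p = 0.000149). Spic, which red-pulp and liver macrophages need to recycle iron, had 191 and 139 CPM in b-gal+ cells, against 1.48 and 1.12 CPM in hepatocytes (log2 difference 6.52 ± 0.81, adjusted p = 0.000449). Of 20 macrophage factors, 17 were higher and 0 lower (median 3.24). Those not called were Cebpb, Rara and Nr1h3. All 20 hepatocyte factors were lower (median -6.52). Hnf4a, a nuclear receptor that maintains hepatocyte identity, had 0.984 and 2.57 CPM in b-gal+ cells, against 1342 and 1189 CPM in hepatocytes (log2 difference -9.21 ± 0.68, adjusted p = 4.63e-05). Ppara, the fasting regulator of fat oxidation, had 0.537 and 0.563 CPM in b-gal+ cells, against 309 and 324 CPM in hepatocytes (log2 difference -8.24 ± 0.73, adjusted p = 9.65e-05). Cebpa, chosen after its values were seen because myeloid cells also use it, had 379.8 and 432 CPM in b-gal+ cells, against 806 and 839 CPM in hepatocytes (log2 difference -1.02 ± 0.27, adjusted p = 0.0145), the smallest gap of the factors named here that were called. It was not called without b-gal+ replicate 1 (adjusted p = 0.0751), hepatocyte replicate 1 (0.0547) or hepatocyte replicate 2 (0.0597), and with library totals alone its difference was -0.03.

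The genes with the highest differences were not lineage markers but mostly immediate-early genes and inflammatory mediators. Immediate-early genes are transcribed within minutes of a stimulus, cell dissociation included. Fosb, which encodes a subunit of the AP-1 factor (chromosome 7, 19302696 to 19310051), had 1809 and 1677 CPM in b-gal+ cells, against 0.517 and 0.559 CPM in hepatocytes, or 40457 and 41685 reads against 7 and 7. Its log2 difference of 10.71 ± 0.31 (adjusted p = 6.84e-06) was the highest of all genes at a mean of 20 CPM or more. Hspa1a, an inducible heat-shock protein, had 329.8 and 206 CPM in b-gal+ cells, against 0.369 and 0.479 CPM in hepatocytes (log2 difference 8.15 ± 0.66, adjusted p = 6.46e-05). Atf3, a stress-induced factor, had 726 and 666 CPM in b-gal+ cells, against 6.05 and 1.92 CPM in hepatocytes (log2 difference 7.45 ± 0.62, adjusted p = 7.46e-05). Of 24 immediate-early and stress genes 23 were higher, with a median of 4.30. The exception was Hsph1, with 78.8 and 76.5 CPM in b-gal+ cells, against 149 and 117 CPM in hepatocytes (log2 difference -0.76 ± 0.37, adjusted p = 0.119), whose sign turns with library totals alone (0.22); it was called lower with only the 4 libraries compared (adjusted p = 0.0143) and when either or both of the EpCAM-positive libraries were left out (0.0129 to 0.0131). Rgs1, a brake on G protein signalling, and Pmaip1, a stress-induced trigger of apoptosis, were also among the 12 genes with the highest difference. Rgs1 had 1583 and 1971 CPM in b-gal+ cells, against 9.30 and 6.47 CPM in hepatocytes (log2 difference 7.74 ± 0.51, adjusted p = 2.95e-05), and Pmaip1 had 151 and 192 CPM in b-gal+ cells, against 0.369 and 0.479 CPM in hepatocytes (log2 difference 7.53 ± 0.32, adjusted p = 8.57e-06).

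The other sorted groups shared this pattern. Fosb had 947 and 1069 CPM in b-gal- cells and 995 and 2029 CPM in EpCAM-positive cells, which were digested and flow sorted in the same way. At the median, b-gal- cells reached 58.9% and EpCAM-positive cells 99.4% of the b-gal+ level over the 24 genes, and 2 of them were called higher in b-gal+ cells than in every other group. Sorting was common to the 3 groups in which these genes were high, and its part in the result was not tested.

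Cytokines were higher in 24 of 30 cases, with a median of 4.40. Il1b, which encodes the fever-inducing interleukin 1β, had 1099 and 1007 CPM in b-gal+ cells, against 6.42 and 4.63 CPM in hepatocytes (log2 difference 7.46 ± 0.62, adjusted p = 7.57e-05). Cxcl2, a neutrophil attractant, had 768 and 634 CPM in b-gal+ cells, against 0.664 and 0.160 CPM in hepatocytes (log2 difference 9.64 ± 0.94, adjusted p = 0.000146). Both were far apart from hepatocytes in each library. Other cytokines were read at most 3 times over the hepatocyte libraries together. Tnf, tumour necrosis factor, had 2435 and 1922 reads in b-gal+ cells, against 0 and 1 in hepatocytes, a ratio of 2406 with an exact 95% counting interval of 432 to 95038. Il10, an anti-inflammatory cytokine, had 2065 and 2183 reads, against 1 and 1, a ratio of 1173 (324 to 9687). Il6, the signal for the acute-phase response, had 1208 and 1020 reads, against 2 and 1, a ratio of 410 (140 to 1990). Osm, oncostatin M, had 419 and 219 reads, against 0 and 0, and was at least 117-fold higher against a floor of 3 reads over the group. PCR copies of 1 molecule cannot be told from separate molecules in these reads, so the intervals and floors hold for counting error alone.

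The hepatocyte level was 0.0308% of the b-gal+ level for Fosb, 0.158% for Hspa1a, 0.0429% for Tnf, 0.0588% for Cxcl2 and 0.0853% for Il10, each under the 0.575% that was lowest among the Kupffer cell markers. Il1b, at 0.525%, was just under it. Of these genes Il10 alone was called higher in b-gal+ cells than in every other group; it had 4.95 and 4.75 CPM in b-gal- cells and 9.48 and 4.11 CPM in EpCAM-positive cells. The single cytokine that was lower in b-gal+ cells was Cxcl12, which retains stem cells and leukocytes through CXCR4: it had 96.6 and 28.9 CPM in b-gal+ cells, against 685 and 629 CPM in hepatocytes (log2 difference -3.62 ± 0.48, adjusted p = 0.000654).

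Genes that were present in 1 group and near absent in the other numbered 29 for b-gal+ cells and 104 for hepatocytes, where present means at least 10 CPM in both libraries and near absent at most 3 reads in each. Genes at 10 CPM or more in both libraries of a group numbered 8133 in b-gal+ cells and 8264 in hepatocytes. The b-gal+ genes of highest level were Ccl3, Ccl4, Tnf, Il10, Nr4a3, Egr3, Il6, Slc28a2, Ptgs2 and Smc1b, mostly mediators and immediate-early factors. Ccl3, a leukocyte attractant, had 1977 and 3417 reads, against 0 and 1 in hepatocytes. Nr4a3, an immediate-early nuclear receptor, had 1822 and 810 reads, against 1 and 2. The hepatocyte genes of highest level were Apol7a, Hfe2, Acsm5, Mug2, Aspdh, Slc30a10, Aadat, Sult2a2, Abcg8 and Abcg5. Mug2, a protease inhibitor of mouse plasma, had 0 and 1 reads in b-gal+ cells, against 2337 and 2894 in hepatocytes, a ratio of 9474 in favour of hepatocytes (1700 to 374284). Sult1b1, a sulfotransferase that was chosen after its values were seen, had 0 and 0 reads in b-gal+ cells, against 419 and 367, and was at least 475-fold lower.

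Lysosomal genes were higher as a group, by less than the lineage markers. Of 50 tested, 31 were higher and 3 lower, with a median of 1.42. Ctsb, a cysteine protease, had 11743 and 10804 CPM in b-gal+ cells, against 1701 and 1808 CPM in hepatocytes (log2 difference 2.68 ± 0.56, adjusted p = 0.00526). Ctsd had 5748 and 4892 CPM in b-gal+ cells, against 715 and 818 CPM in hepatocytes (log2 difference 2.79 ± 0.52, adjusted p = 0.00303). Lgmn, an asparagine-specific protease, had 3001 and 2496 CPM in b-gal+ cells, against 103 and 86.7 CPM in hepatocytes (log2 difference 4.85 ± 0.30, adjusted p = 2.30e-05). Ctss, whose protease trims the invariant chain for antigen presentation, had 2924 and 3307 CPM in b-gal+ cells, against 45.9 and 22.4 CPM in hepatocytes (log2 difference 6.58 ± 0.72, adjusted p = 0.000249) and stood out among them. The genes that were lower were Ctsl, Smpd1 and Lamp2. Ctsl, a cathepsin of most cells, had 691 and 439 CPM in b-gal+ cells, against 1554 and 1678 CPM in hepatocytes (log2 difference -1.55 ± 0.32, adjusted p = 0.00507). With library totals alone 1 of the 3 was called lower, and Ctsl (adjusted p = 0.138) and Lamp2 (adjusted p = 0.714) were not. The proton pump of the lysosome, the vacuolar ATPase, had 11 of 17 subunit genes higher and 0 lower (median 1.11), and with library totals alone all 17 were higher. Atp6v1b2, a subunit of its soluble part, had 544 and 541 CPM in b-gal+ cells, against 89.6 and 83.6 CPM in hepatocytes (log2 difference 2.64 ± 0.27, adjusted p = 0.000199).

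Genes for enzymes with β-galactosidase activity bear on how the cells were sorted. Glb1, the lysosomal β-galactosidase, had 136 and 80.9 CPM in b-gal+ cells, against 31.3 and 31.7 CPM in hepatocytes (log2 difference 1.72 ± 0.28, adjusted p = 0.00173). Galc, which removes galactose from galactosylceramide, had 128 and 134 CPM in b-gal+ cells, against 14 and 16.8 CPM in hepatocytes (log2 difference 3.05 ± 0.25, adjusted p = 6.51e-05). Glb1l had 19 and 22 CPM in b-gal+ cells, against 2.95 and 5.27 CPM in hepatocytes (log2 difference 2.23 ± 0.28, adjusted p = 0.000498). For each of the 3 genes both b-gal+ libraries lay above both hepatocyte libraries. Galc was also higher than in both other groups, whereas Glb1 had 68.5 and 49.7 CPM in b-gal- cells. The mean level of Glb1l in b-gal- cells was 119.6% of its b-gal+ level. The remaining gene tested, Glb1l2, was not called, and its EpCAM-positive level was 1755% of its b-gal+ level. Since the sort selected on such activity, these levels describe the sorted cells.

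Uptake receptors divided by lineage. Of 30 phagocytic and scavenger receptors 22 were higher and 3 lower, with a median of 4.38. Msr1, the class A scavenger receptor, had 1014 and 866 CPM in b-gal+ cells, against 30.0 and 31.1 CPM in hepatocytes (log2 difference 4.92 ± 0.34, adjusted p = 3.44e-05). The genes that were lower were Asgr1 and Asgr2, the asialoglycoprotein receptor of hepatocytes, and Scarb1, which takes up cholesterol from HDL and whose sign turns with library totals alone (-0.75 with TMM, 0.24 without). Both asialoglycoprotein receptor genes were far apart: Asgr1 had 1.57 and 2.17 CPM in b-gal+ cells, against 1109 and 1113 CPM in hepatocytes (log2 difference -8.89 ± 0.54, adjusted p = 2.18e-05). Stab1 and Stab2, receptors that sinusoidal endothelium uses as well, were also higher, and Stab2 had 901 and 718 CPM in b-gal+ cells, against 71.1 and 196 CPM in hepatocytes (log2 difference 2.76 ± 0.48, adjusted p = 0.00221), beside 3710.3 and 4187 CPM in b-gal- cells.

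Genes of antigen presentation and microbial sensing were mostly higher in b-gal+ cells. Of 14 MHC class II genes 13 were higher (median 5.74). Cd74, the invariant chain, had 1988 and 6469 CPM in b-gal+ cells, against 35.5 and 46 CPM in hepatocytes (log2 difference 6.45 ± 0.64, adjusted p = 0.000164), with a gap between the b-gal+ replicates. H2-Ab1, a class II chain, had 528 and 1509 CPM in b-gal+ cells, against 8.86 and 12.4 CPM in hepatocytes (log2 difference 6.35 ± 0.62, adjusted p = 0.000149) and the same gap. Of 27 pattern recognition and inflammasome genes 23 were higher and 4 lower (median 4.27). Nlrp3, the sensor of the inflammasome that releases interleukin 1β, had 263 and 266 CPM in b-gal+ cells, against 1.11 and 0.878 CPM in hepatocytes (log2 difference 7.48 ± 0.63, adjusted p = 7.79e-05). Nlrp6, a sensor best known from intestinal epithelium, had 0.313 and 0.523 CPM in b-gal+ cells, against 363 and 457 CPM in hepatocytes (log2 difference -8.80 ± 0.47, adjusted p = 1.44e-05). Tlr5, Lbp and Nlrp12 were the other members that were lower. Interferon-stimulated genes were higher in 18 of 28 cases and lower in 2 (median 1.39), and neither of the 2 that were lower, Bst2 and Ifi27, was called with library totals alone. Ifi27 was not called either when any of the 4 libraries was left out (adjusted p of 0.0587 to 0.138). Oas2, an antiviral nucleotide synthase, had 176 and 337 CPM in b-gal+ cells, against 2.36 and 2.47 CPM in hepatocytes (log2 difference 6.38 ± 0.34, adjusted p = 1.44e-05).

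Iron genes were called in both directions. Slc40a1, the iron exporter ferroportin, had 5457 and 4547 CPM in b-gal+ cells, against 275 and 408 CPM in hepatocytes (log2 difference 3.89 ± 0.32, adjusted p = 7.11e-05). Hmox1, haem oxygenase, had 2796 and 1378 CPM in b-gal+ cells, against 36.1 and 17.5 CPM in hepatocytes (log2 difference 6.26 ± 0.71, adjusted p = 0.000296). Hamp, the hepatocyte hormone hepcidin that degrades ferroportin, had 0.626 and 2.82 CPM in b-gal+ cells, against 1359.6 and 1654 CPM in hepatocytes (log2 difference -9.60 ± 0.81, adjusted p = 7.89e-05). Trf, the plasma iron carrier transferrin, had 1488 and 1660.4 CPM in b-gal+ cells, against 48129 and 52739 CPM in hepatocytes (log2 difference -5.00 ± 0.41, adjusted p = 7.05e-05). Its b-gal+ level was 3.12% of the hepatocyte level, against a median of 0.262% for 30 plasma carriers and inhibitors, all of which were lower (median -8.49). In b-gal- cells Trf had 388 and 228 CPM. Of 29 iron and haem genes in all, 12 (41.4%) were higher and 15 (51.7%) lower (median -1.14). Over all tested genes the shares were 29.5% and 29.6%.

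Complement genes were called in both directions. Of 29 genes tested 11 (37.9%) were higher and 16 (55.2%) lower (median -2.81), against 29.5% and 29.6% of all tested genes. C3, the central component, had 263 and 158 CPM in b-gal+ cells, against 43758 and 39603 CPM in hepatocytes (log2 difference -7.67 ± 0.64, adjusted p = 7.44e-05). Mbl2, a lectin that starts the cascade, had 0.894 and 2.01 CPM in b-gal+ cells, against 835 and 1098 CPM in hepatocytes (log2 difference -9.00 ± 0.67, adjusted p = 4.68e-05). C9, which forms the membrane pore, had 2.68 and 2.21 CPM in b-gal+ cells, against 1657 and 817 CPM in hepatocytes (log2 difference -8.63 ± 0.41, adjusted p = 1.10e-05). The 11 higher genes were the C1q chains C1qa, C1qb and C1qc, C6, properdin (Cfp), and the receptors C3ar1, C5ar1, C5ar2, Vsig4, Itgam and Itgb2. C3ar1, the receptor for the fragment C3a, had 249.5 and 321 CPM in b-gal+ cells, against 3.25 and 2.00 CPM in hepatocytes (log2 difference 6.53 ± 0.82, adjusted p = 0.000479). Cfp, which stabilises the C3 convertase, had 1449 and 1370.3 CPM in b-gal+ cells, against 16.7 and 15 CPM in hepatocytes (log2 difference 6.43 ± 0.62, adjusted p = 0.000143). C2 and C4b were not called, and their sign turns with the scaling (-0.77 and -0.69 with TMM, 0.22 and 0.30 with library totals alone). C2 was called lower with only the 4 libraries compared (adjusted p = 0.00609) and when either or both of the EpCAM-positive libraries were left out (adjusted p of 0.0356 to 0.0358).

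Genes of clotting factors and acute-phase proteins were mostly lower in b-gal+ cells. Of 30 coagulation and fibrinolysis genes 20 (66.7%) were lower and 6 (20%) higher (median -7.38), against 29.6% and 29.5% of all tested genes. Fga, fibrinogen α, had 41.7 and 40.6 CPM in b-gal+ cells, against 23009 and 14283 CPM in hepatocytes (log2 difference -8.77 ± 0.47, adjusted p = 1.44e-05). Among the 6 higher genes were Tfpi, Thbd, Procr, Plau and Plaur, which encode inhibitors or cofactors of clotting and parts of the plasminogen system. Plau, urokinase, had 99 and 76.9 CPM in b-gal+ cells, against 1.03 and 1.44 CPM in hepatocytes (log2 difference 5.67 ± 0.40, adjusted p = 3.80e-05). Of 18 acute-phase genes 16 were lower and 1 higher (median -7.74). Saa4 had 1.21 and 0.804 CPM in b-gal+ cells, against 2082 and 454 CPM in hepatocytes (log2 difference -9.35 ± 0.66, adjusted p = 3.82e-05). Hp, haptoglobin, had 199 and 25.1 CPM in b-gal+ cells, against 15178 and 4778 CPM in hepatocytes (log2 difference -6.90 ± 1.48, adjusted p = 0.00594). For both genes hepatocyte replicate 1 was well above replicate 2, and without hepatocyte replicate 1 Hp was not called (adjusted p = 0.0542). The acute-phase gene that was higher was Il1rn, the interleukin 1 receptor antagonist, with 93.9 and 95.7 CPM in b-gal+ cells, against 12.7 and 6.15 CPM in hepatocytes (log2 difference 3.35 ± 0.90, adjusted p = 0.0156); it was not called without either b-gal+ replicate or without hepatocyte replicate 2 (adjusted p of 0.0627 to 0.105).

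Genes of liver metabolism were lower in b-gal+ cells almost throughout. Among 32 urea cycle and amino acid breakdown genes 31 were lower and 0 higher (median -9.09). Tat, tyrosine aminotransferase, had 2.59 and 4.22 CPM in b-gal+ cells, against 5218 and 4669 CPM in hepatocytes (log2 difference -10.33 ± 0.53, adjusted p = 1.33e-05). Tdo2, which opens the tryptophan ring, had 1.61 and 2.21 CPM in b-gal+ cells, against 2201 and 2555 CPM in hepatocytes (log2 difference -9.95 ± 0.64, adjusted p = 2.69e-05). Ftcd, which breaks down histidine products, had 0.805 and 0.684 CPM in b-gal+ cells, against 1140.4 and 1309 CPM in hepatocytes (log2 difference -9.94 ± 0.54, adjusted p = 1.47e-05). The gene not called was Glul, glutamine synthetase of the pericentral zone, with 914 and 699.9 CPM in b-gal+ cells, against 286 and 1189 CPM in hepatocytes; its hepatocyte values lay on either side of the b-gal+ values, and without hepatocyte replicate 2 it was called higher (1.45, adjusted p = 0.021). Among 32 cytochromes P450, 28 were lower and 2 higher, namely Cyp2s1 and Cyp4b1 (median -8.42). Cyp2c70, which makes muricholic acids in mice, had 0.671 and 2.78 CPM in b-gal+ cells, against 1414 and 2542 CPM in hepatocytes (log2 difference -9.92 ± 0.83, adjusted p = 7.56e-05). Cyp2s1 rests on 14 and 13 reads in b-gal+ cells, against 0 and 0 in hepatocytes, and was not called without b-gal+ replicate 1 (adjusted p = 0.0773) or 2 (adjusted p = 0.0529). Conjugating enzymes of phase II metabolism were lower in 28 of 30 cases (median -5.35), Gsta3 among them, with 2.24 and 5.11 CPM in b-gal+ cells, against 1829.7 and 2465 CPM in hepatocytes (log2 difference -9.08 ± 0.68, adjusted p = 4.74e-05). Bile acid genes were lower in 23 of 24 (median -8.26). Abcb11, the bile salt export pump, had 0.894 and 2.25 CPM in b-gal+ cells, against 1728 and 3232 CPM in hepatocytes (log2 difference -10.24 ± 0.63, adjusted p = 2.26e-05).

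Mitochondrial and lipid genes differed by less. Fatty acid oxidation and ketogenesis genes were lower in 24 of 24 cases, with a median of -3.94. Oxidative phosphorylation genes were lower in 27 of 28, with a median of -2.06. Cyc1, cytochrome c1, had 58.5 and 48.3 CPM in b-gal+ cells, against 435 and 414 CPM in hepatocytes (log2 difference -2.98 ± 0.15, adjusted p = 1.20e-05), the largest gap of that list, and the b-gal+ level of the 28 genes was 23.9% of the hepatocyte level at the median. Cholesterol synthesis genes were lower in 25 of 25 (median -4.0). Antioxidant and glutathione genes were lower in 15 of 22 and higher in 1 (median -1.43). The higher one was Gpx3, a secreted glutathione peroxidase, with 258 and 213 CPM in b-gal+ cells, against 1.99 and 1.68 CPM in hepatocytes (log2 difference 6.66 ± 0.51, adjusted p = 5.40e-05); DESeq2 called 2 higher and library totals alone gave 3.

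Lipid transport held exceptions to the hepatocyte pattern. Of 30 lipoprotein and lipid exchange genes 21 (70%) were lower and 5 (16.7%) higher (median -5.90), against 29.6% and 29.5% of all tested genes. Apob, the scaffold of VLDL, had 23.5 and 56.9 CPM in b-gal+ cells, against 15928 and 19352 CPM in hepatocytes (log2 difference -8.89 ± 0.74, adjusted p = 7.43e-05). Pltp, a lipid transfer protein, had 794 and 724 CPM in b-gal+ cells, against 11.6 and 23.9 CPM in hepatocytes (log2 difference 5.46 ± 0.53, adjusted p = 0.000141), and Abcg1, Lpl, Cd36 and Soat1 were also higher; Cd36 was not called without b-gal+ replicate 1 (adjusted p = 0.0676) or hepatocyte replicate 1 (adjusted p = 0.0939). Apoe, the ligand for remnant uptake, had 16485 and 26123 CPM in b-gal+ cells, against 28867 and 44247 CPM in hepatocytes. It was not called (log2 difference -0.78 ± 1.18, adjusted p = 0.604), with an interval of -3.59 to 2.02; its sign turns with library totals alone (0.21). It drew the most reads of any gene in the b-gal+ libraries, without correction for length. Trem2, the lipid-sensing receptor in the series title, had 96.9 and 117 CPM in b-gal+ cells, against 1.85 and 0.239 CPM in hepatocytes (log2 difference 6.34 ± 1.22, adjusted p = 0.00372). In the list of lipid-associated macrophage genes that Trem2 belongs to, 14 of 22 were higher and 1 lower, Ctsl (median 2.39), and the count of lower genes was 0 with library totals alone. Gpnmb, a membrane protein of lipid-laden macrophages, had 688 and 1187 CPM in b-gal+ cells, against 33.2 and 3.91 CPM in hepatocytes (log2 difference 6.21 ± 1.96, adjusted p = 0.0299). It was not called by edgeR (adjusted p = 0.0602) or when any of the 4 libraries was left out (adjusted p of 0.0572 to 0.18). Trem2 had 41 and 4.55 CPM in b-gal- cells, and it was not among the genes called higher than in every other group.

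Signal reception and lipid mediators followed the macrophage side. Of 24 receptors for macrophage growth factors and cytokines 23 were higher and 0 lower (median 4.63). Il10ra, the chain that binds interleukin 10, had 345 and 482 CPM in b-gal+ cells, against 3.62 and 3.11 CPM in hepatocytes (log2 difference 6.73 ± 0.38, adjusted p = 1.63e-05). Of 18 eicosanoid genes 13 were higher and 3 lower (median 3.83). Pla2g4a, which frees arachidonic acid from membranes, had 142 and 118 CPM in b-gal+ cells, against 1.70 and 0.718 CPM in hepatocytes (log2 difference 6.31 ± 0.75, adjusted p = 0.000373), and Alox5ap, the partner of 5-lipoxygenase, had 204 and 128 CPM in b-gal+ cells, against 1.92 and 1.20 CPM in hepatocytes (log2 difference 6.32 ± 0.79, adjusted p = 0.000473). Ephx2, an epoxide hydrolase, had 3.53 and 3.22 CPM in b-gal+ cells, against 1087 and 813 CPM in hepatocytes (log2 difference -7.92 ± 0.50, adjusted p = 2.40e-05) and was among the 3 that were lower.

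LXR targets and solute carriers were called in both directions, in shares partly near the 29.5% higher and 29.6% lower of all tested genes. Of 17 genes of the LXR and cholesterol efflux list 8 (47.1%) were higher and 5 (29.4%) lower (median 0.76). Arl4c, an LXR-induced small GTPase, had 187 and 217 CPM in b-gal+ cells, against 3.54 and 3.67 CPM in hepatocytes (log2 difference 5.62 ± 0.28, adjusted p = 1.15e-05), whereas Scd1, a fatty acid desaturase, had 164 and 129 CPM in b-gal+ cells, against 5002 and 16948 CPM in hepatocytes (log2 difference -5.98 ± 0.51, adjusted p = 8.21e-05). Of 24 solute carriers 8 (33.3%) were higher and 12 (50.0%) lower (median -1.17). Slc38a3, a glutamine carrier, had 2.15 and 3.02 CPM in b-gal+ cells, against 4031 and 4517 CPM in hepatocytes (log2 difference -10.45 ± 0.81, adjusted p = 5.62e-05), and Slc38a4, an amino acid carrier of liver, had 0.716 and 3.22 CPM in b-gal+ cells, against 2204 and 3155 CPM in hepatocytes (log2 difference -10.28 ± 0.87, adjusted p = 7.92e-05). Slc7a8, an amino acid carrier chosen after its values were seen, had 514 and 592 CPM in b-gal+ cells, against 5.46 and 5.03 CPM in hepatocytes (log2 difference 6.59 ± 0.73, adjusted p = 0.000270). Of the epithelial junction and keratin genes 21 of 21 were lower (median -6.85), among them the gap junction gene Gjb1, with 1.34 and 1.77 CPM in b-gal+ cells, against 1421 and 1847 CPM in hepatocytes (log2 difference -9.63 ± 0.60, adjusted p = 2.40e-05).

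**Figure D4:**
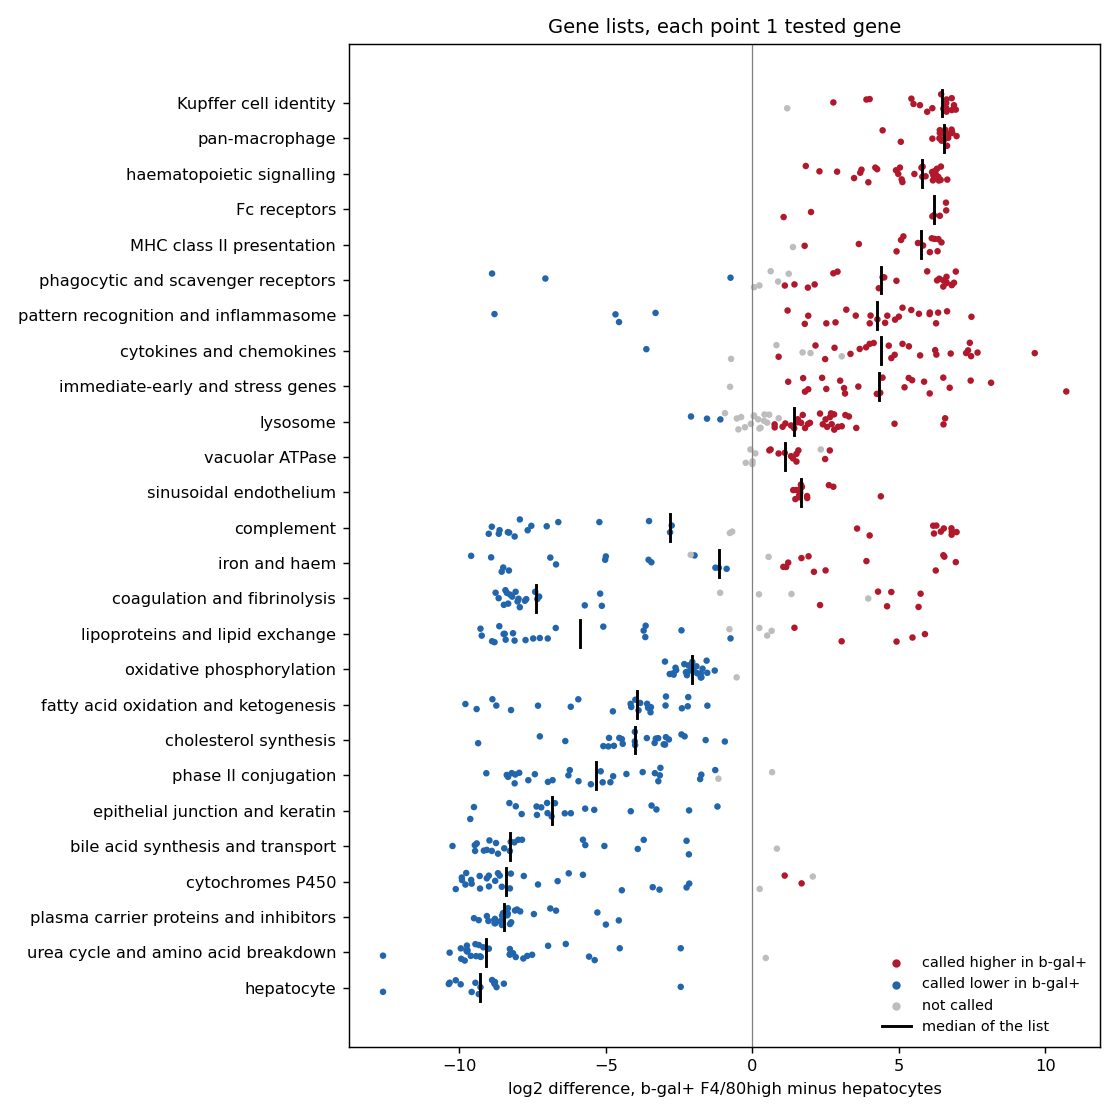
Log2 difference, b-gal+ cells minus hepatocytes, of every tested gene in a selection of the 47 lists, with 1 point per gene. Points are red where called higher, blue where called lower and grey where not called, and a bar marks the median of each list. Macrophage lists lie mostly right of 0 and metabolic lists mostly left of it, whereas complement, iron and haem, and coagulation have points on both sides.

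For some metabolic steps the cell types differed in which gene of a pair they expressed most. In 18 pairs a form called broad here was set against a liver form. Most pairs are enzymes, and others are carriers, receptors or lectins. The broad forms include Fcna, a Kupffer cell marker, and Hk3, a myeloid gene, so not all are widely expressed. Of them 12 of 18 were higher and 3 lower, and 15 of 16 liver forms were lower and 0 higher. The shares over all tested genes were 29.5% higher and 29.6% lower. Levels per kilobase of exon allow genes to be compared with each other. Hk3, a hexokinase of myeloid cells, had 105 CPM per kb in b-gal+ cells, against 1.10 in hepatocytes. Pkm, the broad pyruvate kinase, had 46.4 CPM per kb in b-gal+ cells, against 1.99 in hepatocytes, and Pklr, the liver form, 0.133 in b-gal+ cells, against 113 in hepatocytes. The cholesterol acyltransferases differed in the same way: Soat1 had 52.6 CPM per kb in b-gal+ cells, against 0.838 in hepatocytes, and Soat2 0.963 in b-gal+ cells, against 40.1 in hepatocytes.

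Other pairs differed less plainly. Pygl, the liver form of glycogen phosphorylase, had 32.9 CPM per kb in b-gal+ cells, beside 40.6 for the broad form Pygb. Arg1, the arginase of the urea cycle, had 294 and 39.5 CPM in b-gal+ cells, against 2647 and 2366 CPM in hepatocytes and was called lower (log2 difference -4.53 ± 1.56, adjusted p = 0.0409), and Arg2, the mitochondrial form, was higher (log2 difference 4.97 ± 0.58, adjusted p = 0.000333). In b-gal+ cells Arg1 had 132 and 17.7 CPM per kb and Arg2 had 26.9 and 19.7, so that Arg1 lay above Arg2 in replicate 1 and below it in replicate 2. The call of Arg1 was lost by edgeR (adjusted p = 0.0793), with library totals alone (0.0768), without the filter on low counts (0.0569), and without b-gal+ replicate 2 (0.204), hepatocyte replicate 1 (0.154) or hepatocyte replicate 2 (0.136). Pfkl was not called (log2 difference -0.29 ± 0.33, adjusted p = 0.481), and its sign turns with library totals alone (0.69). The broad forms Hmgcs1, Acaca and Tfrc were lower in b-gal+ cells; Tfrc was -0.88 with TMM and 0.10 with library totals alone, and was not called without b-gal+ replicate 2 (adjusted p = 0.077) or hepatocyte replicate 2 (adjusted p = 0.0786). Slc2a1, Gys1 and Fabp5 were not called, although Gys1 and Fabp5 were called higher by DESeq2 (adjusted p = 0.0332 and 0.0452), with library totals alone (0.0026 and 0.00771) and with only the 4 libraries compared (0.0227 and 0.0488).

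**Figure D5:**
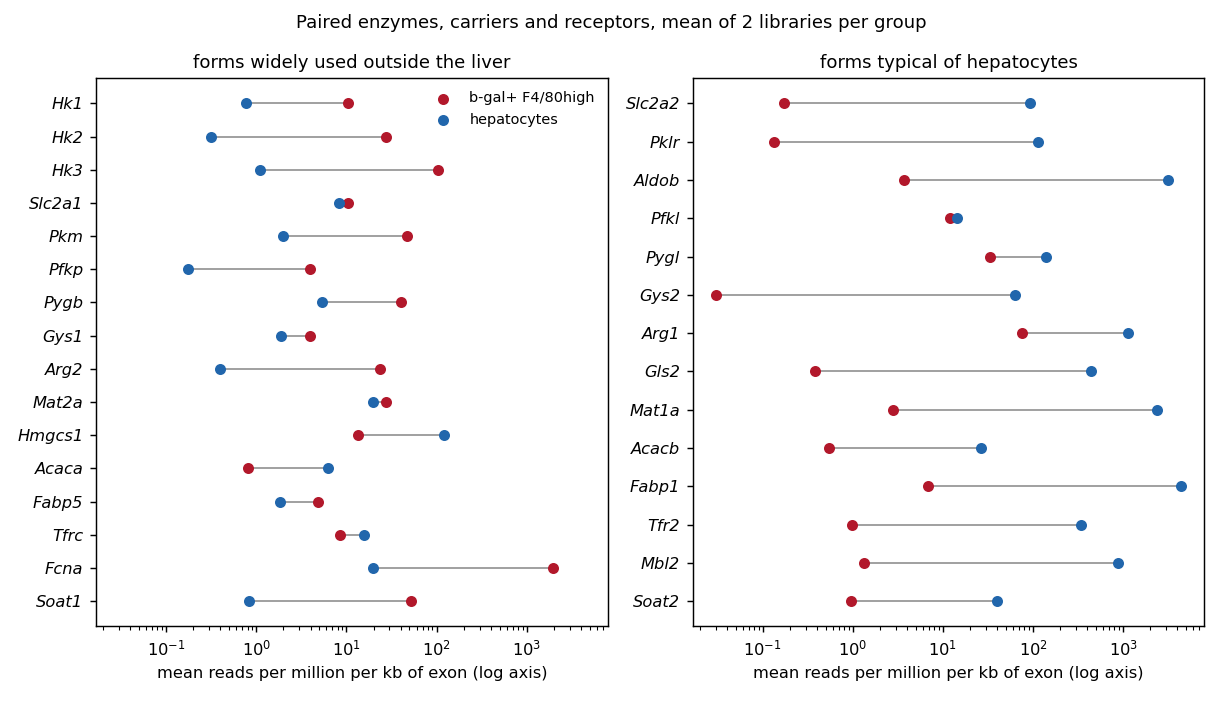
Mean level per kilobase of exon (TMM-scaled CPM per kb, log axis) in b-gal+ cells (red) and hepatocytes (blue) of most of the paired genes: forms titled as widely used outside the liver (left panel) and forms typical of hepatocytes (right panel). The left panel also holds Fcna, a Kupffer cell marker, and Hk3, a myeloid gene. In the right panel the blue point is the higher one in every row, by least for Pfkl, and in the left panel the red point is the higher one except for Hmgcs1, Acaca and Tfrc.

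Some ligands were called in the direction opposite to that of their receptors. Of 35 ligand and receptor pairs examined, 15 had members called in opposite directions: 12 with the ligand lower and the receptor higher in b-gal+ cells, and 3 with the ligand higher and the receptor lower. Another 7 pairs had both members higher and 0 had both lower. Of all tested genes 29.5% were called higher and 29.6% lower. Some pairs share a gene, such as C3, Saa1 or Itgam, so the counts are a description. The ligand Saa1, paired with Fpr2 and Tlr2, differed widely between the replicates of both groups, so its call is uncertain. Its log2 difference, -7.79, shrank to -6.08 without b-gal+ replicate 2 and to -4.80 without hepatocyte replicate 1. Hepatocyte ligands with macrophage receptors included Hp with Cd163, C3 with C3ar1, Vsig4 and Itgam, Hamp with Slc40a1, and Cxcl12 with Cxcr4, where Cxcr4 had 107 and 189 CPM in b-gal+ cells, against 0.369 and 1.04 CPM in hepatocytes (log2 difference 6.94 ± 0.53, adjusted p = 5.10e-05). Hc, complement C5, had 10.3 and 11.8 CPM in b-gal+ cells, against 3724 and 2757 CPM in hepatocytes (log2 difference -8.12 ± 0.26, adjusted p = 6.84e-06), and its receptor C5ar1 had 128 and 187 CPM in b-gal+ cells, against 1.99 and 1.36 CPM in hepatocytes (log2 difference 6.17 ± 0.99, adjusted p = 0.00153).

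The pairs in the reverse direction involved growth and inflammation. Hbegf, an EGF-family ligand, had 159.7 and 136 CPM in b-gal+ cells, against 3.17 and 3.19 CPM in hepatocytes (log2 difference 5.33 ± 0.46, adjusted p = 8.60e-05), and Egfr had 2.82 and 1.73 CPM in b-gal+ cells, against 1237 and 649.7 CPM in hepatocytes (log2 difference -8.37 ± 0.48, adjusted p = 1.74e-05). Hgf, hepatocyte growth factor, had 61.9 and 45.8 CPM in b-gal+ cells, against 9.30 and 15.2 CPM in hepatocytes (log2 difference 2.12 ± 0.39, adjusted p = 0.00308), and its receptor Met had 1.48 and 2.29 CPM in b-gal+ cells, against 227 and 221 CPM in hepatocytes (log2 difference -6.58 ± 0.47, adjusted p = 3.92e-05). Hgf is also a stellate cell gene and had 140.2 and 107 CPM in b-gal- cells. The third such pair was Il1b with Il1r1, where Il1r1 had 24.5 and 11.7 CPM in b-gal+ cells, against 64.6 and 46.9 CPM in hepatocytes (log2 difference -1.67 ± 0.34, adjusted p = 0.00493) and was not called with library totals alone (adjusted p = 0.114). A pair of the other direction, with the ligand lower, was Igf1 with Igf1r, whose log2 difference was 2.20 (adjusted p = 0.00629). Igf1, insulin-like growth factor, had 717 and 495 CPM in b-gal+ cells, against 1525 and 1693 CPM in hepatocytes (log2 difference -1.43 ± 0.35, adjusted p = 0.0104), beside 93.8 and 45.1 CPM in b-gal- cells. Its call was lost with library totals alone (adjusted p = 0.279) and without b-gal+ replicate 2 (0.0585) or hepatocyte replicate 2 (0.0563). Of 26 receptors for hepatocyte hormones and growth factors 19 (73.1%) were lower and 4 (15.4%) higher (median -4.27). Over all tested genes the shares were 29.6% and 29.5%. The 4 higher receptors were Il6ra, Osmr, Lepr and Tnfrsf1a. The count of 4 became 1 without hepatocyte replicate 2, 2 without b-gal+ replicate 1 and 7 with library totals alone, and Il6ra was not called when any of the 4 libraries was left out (adjusted p of 0.0974 to 0.149). Gcgr, the glucagon receptor, had 0.850 and 0.442 CPM in b-gal+ cells, against 609.6 and 720.4 CPM in hepatocytes (log2 difference -9.20 ± 0.44, adjusted p = 1.12e-05).

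Some genes were at like levels in both cell types. Of 3096 genes whose 95% interval lay within -1 and 1 on the log2 scale, the 10 of highest level were Rxra, Cd164, Gnas, Myh9, Sqstm1, Slc29a1, Rpl4, H2-D1, Ctnnb1 and Cd81. Rxra, the shared partner of many nuclear receptors, had 885 and 797 CPM in b-gal+ cells, against 981 and 825 CPM in hepatocytes, with an interval of -0.53 to 0.33. Ctnnb1, β-catenin, had 522 and 435 CPM in b-gal+ cells, against 552 and 498 CPM in hepatocytes, with an interval of -0.74 to 0.47. Such likeness holds for TMM scaling: with library totals alone Rxra was at 0.89 and Ctnnb1 at 0.85, both called higher, beside a median of 0.82 for all tested genes.

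Of the genes higher in b-gal+ cells than in hepatocytes, 866 were also above b-gal- cells and above EpCAM-positive cells, which is 6.01% of genes tested and 20.4% of the higher calls. These contrasts share the b-gal+ libraries. The 10 of highest level were Ctsb, Clec4f, Cd5l, Csf1r, Ctsd, Slc40a1, Sdc3, Tmsb4x, C1qb and Ctss. Sdc3, a cell-surface proteoglycan, had 4854 and 3641 CPM in b-gal+ cells, against 53.8 and 57 CPM in hepatocytes (log2 difference 6.23 ± 0.43, adjusted p = 3.42e-05), and 895 and 653 CPM in b-gal- cells. The count rests on single libraries: it was 392 and 268 without b-gal+ replicate 1 or 2, and 557 and 270 without b-gal- replicate 1 or 2, where the lone library of a group was assumed to vary like the others.

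Markers of other liver cells were checked in the same libraries. Called higher were 100% of the endothelial list and 14.3% of the stellate cell list, against 29.5% of all tested genes. Called lower were 21.4% of the cholangiocyte list, against 29.6% of all tested genes. All 16 sinusoidal endothelial markers were called higher (median 1.64), with summed levels of 4961 and 3622 CPM in b-gal+ cells, against 626 and 1429 CPM in hepatocytes. Cdh5, an endothelial cadherin, had 1142 and 794 CPM in b-gal+ cells, against 31.7 and 64.3 CPM in hepatocytes (log2 difference 4.38 ± 0.37, adjusted p = 7.70e-05), beside 1372 and 1468 CPM in b-gal- cells. The count was 9 without b-gal+ replicate 1 and 7 without hepatocyte replicate 1. None of the 16 was called above every other group. Cdh5 was not typical of the list. Its b-gal- level was 147% of its b-gal+ level, the lowest of the list, against a median of 977%. Its b-gal+ level was 2018% of its hepatocyte level, the highest, against a median of 305% for the 16 markers. Stab2, named among the scavenger receptors, belongs to these markers, and the part of endothelial RNA in that list was not tested. Of 14 stellate cell markers 2 were higher and 0 lower, with sums of 1337 and 385 CPM in b-gal+ cells, against 401 and 623 CPM in hepatocytes; 7 were higher without b-gal+ replicate 2 and 1 without b-gal+ replicate 1 or hepatocyte replicate 1. The cholangiocyte list had 0 higher and 3 lower of 14, Sox9 and Pkhd1 among them, though Sox9 was not called without hepatocyte replicate 1 (adjusted p = 0.0504); 2 were higher when either EpCAM-positive library was left out.

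Markers of other leukocytes were few or low. Called higher were 15.4% of the T and NK cell list, 12.5% of the B cell list and 9.09% of the neutrophil list. Each share was below the 29.5% of all tested genes. The T and NK cell list summed to 38.6 and 55.9 CPM in b-gal+ cells, against 2.22 and 3.91 CPM in hepatocytes. Cd4, which some macrophages carry too, made up most of it, with 31.7 and 45.8 CPM in b-gal+ cells, against 1.11 and 1.84 CPM in hepatocytes (log2 difference 4.32 ± 0.46, adjusted p = 0.000229). In that list 2 of 13 genes were higher, 1 when any of the 4 libraries was left out, and 5 by DESeq2. The B cell list had 1 of 8 higher, Cd79b, with sums of 19.5 and 24.9 CPM in b-gal+ cells, against 1.11 and 2.79 CPM in hepatocytes, and edgeR and DESeq2 each called 6 of the 8 higher. The neutrophil list had 1 of 11 higher, Csf3r, the G-CSF receptor, with 101 and 143 CPM in b-gal+ cells, against 1.33 and 1.04 CPM in hepatocytes (log2 difference 6.17 ± 0.60, adjusted p = 0.000148), whereas DESeq2 called 4 higher.

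Among 12 monocyte markers 5 (41.7%) were higher and 1 (8.33%) lower, F10, and DESeq2 called 9 higher. Of all tested genes 29.5% were higher and 29.6% lower. Lgals3, galectin 3, had 442 and 367 CPM in b-gal+ cells, against 12 and 1.76 CPM in hepatocytes (log2 difference 6.25 ± 1.05, adjusted p = 0.00196). F10, clotting factor X of plasma, was not called lower without b-gal+ replicate 2 or either hepatocyte replicate (adjusted p of 0.0938 to 0.12). The monocyte sums differed between the b-gal+ replicates, with 3885 and 821 CPM, against 7688 and 7309 CPM in hepatocytes. Fn1, fibronectin, makes up most of the sum in b-gal+ replicate 1 and in both hepatocyte libraries and was not called, with 3017 and 329 CPM in b-gal+ cells, against 6085 and 5845 CPM in hepatocytes. Dendritic cell markers were higher in 4 of 12 cases (33.3%), near the 29.5% of all tested genes, and lower in 1 (8.33%). The lower gene was Bst2, which was not called with library totals alone (adjusted p = 0.56). Batf3, a factor of cross-presenting dendritic cells, had 30.6 and 46.3 CPM in b-gal+ cells, against 0.591 and 0.239 CPM in hepatocytes (log2 difference 5.41 ± 0.46, adjusted p = 8.44e-05). Like Lgals3, Csf3r, Cd4 and Cd79b, it was the member of its list with the lowest b-gal- level relative to b-gal+ cells. That level was 16.1% for Batf3, against a median of 281% for its list. It was 23.8% for Lgals3 (median 246%), 34.1% for Csf3r (339%), 13.8% for Cd4 (516%) and 50.7% for Cd79b (526%). Of the 5 erythroid and platelet genes tested 1 (20%) was higher, Pf4, and 2 (40%) lower, Alas2 and Klf1. Pf4 had 23.2 and 17.3 CPM in b-gal+ cells, against 1.18 and 0.479 CPM in hepatocytes (log2 difference 4.00 ± 0.85, adjusted p = 0.00582). Alas2, the haem enzyme of red cell precursors, had 1.30 and 0.603 CPM in b-gal+ cells, against 114 and 45.7 CPM in hepatocytes (log2 difference -5.69 ± 0.48, adjusted p = 7.94e-05).

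Cell cycle genes were higher in 10 of 26 cases and lower in 1 (median 1.27), so that 38.5% of the list was higher, against 29.5% of all tested genes. Among the higher was Mcm3, a subunit of the replication helicase, with 52.5 and 56.5 CPM in b-gal+ cells, against 6.94 and 8.38 CPM in hepatocytes (log2 difference 2.76 ± 0.22, adjusted p = 5.88e-05). Mki67, a marker of dividing cells, had 64.9 and 38.5 CPM in b-gal+ cells, against 7.83 and 3.27 CPM in hepatocytes (log2 difference 3.17 ± 0.74, adjusted p = 0.00886), and was not called without b-gal+ replicate 1 (adjusted p = 0.0551) or hepatocyte replicate 2 (adjusted p = 0.0718). The 10 became 5 without b-gal+ replicate 1 or hepatocyte replicate 2, 6 without b-gal+ replicate 2 and 17 with library totals alone.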

How the data were processed

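Bulk RNA-seq of sorted b-gal+ F4/80high cells was set against that of pelleted hepatocytes. HTSeq counted the reads on GRCm38.p4 (mm10), per the submitters' processing notes. Neither the aligner nor the scaling step is given in the sources used here. For hepatocyte replicate 1 the authors deposited whole counts per gene. For the remaining 7 libraries they deposited a scaled value, the read count times 1 factor per library of up to 1.54. Dividing by it gave whole reads for 100% of values, within 0.01 reads. Left out were 14 rows whose symbol had turned into a date (0.0514% to 0.182% of reads).

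The 14404 genes kept by the default filter of edgeR 4.0.16 were tested with limma 3.58.1 (R 4.3.3), with a trend, on log2(CPM + 0.5) after TMM scaling. All 8 libraries entered in 4 groups, which left 4 residual degrees of freedom. Tests were two-sided with Benjamini-Hochberg adjustment over all genes tested. The pseudocount understates changes of genes near 0 reads. Scripts were tested on simulated data. At 16948568 to 24549242 reads per library, 3 reads equal 0.122 to 0.177 CPM before TMM scaling. After scaling, 3 reads equal more CPM than before in hepatocytes, with factors of 0.552 and 0.527, and fewer in the other groups. Counting intervals are exact (Clopper-Pearson, 95%).

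Of 1043 entries in 47 gene lists 1035 had a symbol in the files. The members and lists were chosen with earlier results of these data known, so a count over a list is a description. Genes were named by a rule: the 12 highest and 12 lowest differences at a mean of at least 20 CPM without overlap, the 10 most abundant per group, up to 4 called members per list by size of difference at a mean of at least 10 CPM, the isoform and ligand pairs, check genes, and the top 10 of each class defined in the text. Genes named as exceptions, as not called or as further members of a list (for example Hmox1, Msr1, Marco, Cfp and Plau) were chosen after their values were seen. Exon lengths and positions come from GENCODE M21 and promoter windows from RefSeq. Some genes that the rule names are not reported here. Alternatives were other scalings, filters and pseudocounts, edgeR's quasi-likelihood test, DESeq2 1.42.0, fewer libraries, a replicate block and leaving out each library.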

Additional observations from a re-analysis of the deposited data

How the results depend on the processing

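Scaling moved the balance of calls most. With library totals alone 7336 genes were higher and 2360 lower in b-gal+ cells (75.7% of calls higher, against 49.9% with TMM). The counts were 7560 and 2303 (76.7% higher) when the authors' own scaling was kept, and 56.1% of calls were higher with upper-quartile factors. The median of all tested genes was 0.82, 0.87 and 0.24 under these scalings, and 97 and 159 genes called lower with TMM were called higher under the first and second of them. Leaving out each library in turn gave 3296 to 4602 higher genes, 3572 to 4568 lower genes, and 268 to 1158 genes above every other group. Under the other alternatives run these counts stayed within 1.5 times those reported: DESeq2 gave 4509 higher and 4457 lower, and edgeR 4259 and 4211.

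Genes near equal levels changed sign. With library totals alone the log2 differences were 0.21 for Apoe, 0.22 for C2, 0.30 for C4b, 0.62 for Cd164, 0.85 for Ctnnb1, 0.22 for Hsph1, 0.69 for Pfkl, 0.95 for Rara, 0.84 for Rpl4, 0.89 for Rxra, 0.24 for Scarb1, 0.91 for Slc29a1, 0.81 for Sqstm1 and 0.10 for Tfrc. With the authors' scaling they were 0.26 for Apoe, 0.28 for C2, 0.36 for C4b, 0.68 for Cd164, 0.027 for Cebpa, 0.91 for Ctnnb1, 0.28 for Hsph1, 0.053 for Ifi27, 0.75 for Pfkl, 1.01 for Rara, 0.90 for Rpl4, 0.95 for Rxra, 0.30 for Scarb1, 0.97 for Slc29a1, 0.87 for Sqstm1 and 0.16 for Tfrc. With upper-quartile factors they were 0.062 for Ctnnb1, 0.17 for Rara, 0.050 for Rpl4, 0.10 for Rxra, 0.13 for Slc29a1 and 0.020 for Sqstm1. Each of these scalings applies a common factor to all genes of a library. Genes well above the pseudocount therefore shift by about the same amount, and genes near 0 reads shift by less. Leaving out each library in turn, the difference ran from -0.60 to 1.45 for Glul, -0.044 to 0.27 for Gnas, -0.15 to 0.071 for Rara, -0.45 to 0.089 for Rpl4, -0.26 to 7.72e-05 for Rxra, -0.50 to 0.30 for Slc29a1 and -3.91 to 3.95 for Ddx3y, whose reads lie in replicate 1. Except for Ddx3y the cause was not tested.

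A replicate block, which pairs libraries of the same number, gave 4587 higher, 4480 lower and 1074 genes above every other group, and called Fn1 lower (-2.58, adjusted p = 0.0354). Deviations of same-numbered b-gal+ and hepatocyte libraries from their group means correlated at 0.177 across genes, and those of the other pairs of groups at 0.220 to 0.494, with 2 numbers only and no label that ties a number to shared mice. Depth limits genes with few reads in 1 group, whose fitted difference depends on the pseudocount.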

Other observations

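Libraries of the same replicate number shared features that their groups do not explain. Ddx3y, a gene of the Y chromosome, had 109 and 0 CPM in b-gal+ replicates 1 and 2, 86.9 and 0 CPM in b-gal- cells, 59.3 and 0 CPM in EpCAM-positive cells and 103 and 0 CPM in hepatocytes, always with the reads in replicate 1. Xist, the RNA of the inactive X chromosome, had 108 and 851 CPM in b-gal+ cells, against 414 and 1836 CPM in hepatocytes.

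Other genes differed between replicates of 1 or more groups. Saa1, an acute-phase protein of hepatocytes, had 11.9 and 0.603 CPM in b-gal+ cells, against 6814 and 98.7 CPM in hepatocytes. Fn1, fibronectin, had 3017 and 329 CPM in b-gal+ replicates 1 and 2, 8115 and 972 CPM in b-gal- cells and 4255 and 1029 CPM in EpCAM-positive cells, but 6085 and 5845 CPM in hepatocytes. Chil3, a chitinase-like protein of monocytes and macrophages, had 95.2 and 7.24 CPM in b-gal+ cells, 189 and 7.93 CPM in b-gal- cells, 125 and 4.75 CPM in EpCAM-positive cells and 1.40 and 0.160 CPM in hepatocytes. These genes were chosen after their values were seen, and the difference between replicate numbers was not tested.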
